A study of Mus musculus with 2 samples.

Results

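The 39 genes described here are textbook targets of the hypoxia-inducible factors (HIFs) together with the enzymes of glycolysis, from glucose uptake to lactate export. They were chosen by symbol, and 37 of the 39 had a row among the 19059 genes of the count matrices, while Gapdh and Eno1 were not analysed here. The data were single-cell RNA counts from gliomas that grew in the brains of C57BL/6J mice from 1 line of mouse glioblastoma stem cells (mGSC) with the genotype Trp53+/- and Nf1+/-. The mice received vehicle or Xevinapant, an orally given SMAC mimetic that blocks inhibitor of apoptosis proteins, by daily gavage for 7 days, and the design names 4 tumors per group. The tumor cells of both groups carried the same genotype, the hosts kept their own immune cells, the mice were young adult females when bought, and their age at collection is not given in the sources used here. The question for these genes was in which cells of the tumor they were high, and whether Xevinapant-treated tumors differed from vehicle tumors.

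HIFs pair an oxygen-sensitive alpha subunit (Hif1a or Epas1) with Arnt. When oxygen is present, the Egln prolyl hydroxylases mark the alpha subunit for breakdown through Vhl, and when it is scarce the pair binds short DNA elements, often with the core ACGTG, and switches on genes for glucose uptake, glycolysis, pH control, collagen modification and vessel growth. In glioblastoma this program is known from the cells around necrotic areas, and several of its targets also belong to the ordinary equipment of myeloid cells.

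Each group was deposited as 4 matrices of unique molecular identifiers (UMIs, 1 per captured molecule), 56943 barcodes in all. Of these, 53426 were kept after filters (200 or more genes detected, a mitochondrial share no higher than 10%, a complexity of 0.8 or more) and after removal of the low copies of barcodes that a vehicle and a Xevinapant matrix shared (1413 shared, 1152 low copies). Matrices 1 and 3 of vehicle, 1 and 2 of Xevinapant, and 3 and 4 of Xevinapant were nearly alike, with differences 1.18 to 2.17 times as wide as sampling alone would give, while any other pair within a group reached 3.78 to 7.28 times. Each alike pair was counted as 1 sample, which left 3 vehicle samples (1+3, 2 and 4) and 2 Xevinapant samples (1+2 and 3+4), and nothing in the labels ties a matrix to an animal, so that p-values measure the spread between these samples. Pool, batch date and the labelled molecule (total RNA for vehicle, polyA RNA for Xevinapant) coincide with the treatment and cannot be told apart from it. The label names glioblastoma stem cells, while marker genes outside the 39 found 44344 tumor cells and, among host cells, 1070 macrophages, 877 microglia, 569 fibroblasts, 314 neutrophils, 268 monocytes, 214 endothelial cells, 121 T cells and 52 mural cells. Tumor cells were set by glial lineage markers, with no copy-number call and no gate for host astrocytes, oligodendrocyte precursors or neurons. Host cells of these kinds may be among them, which was not tested. All 12 tumor-lineage markers were detected and higher in the tumor cells than in the cells they were compared with, and so were all measured markers of each host type but for 1 of 7 in microglia. The same marker lists set the cell types, so this outcome was largely fixed in advance and is no separate check of the types. Tumor cells held 105275382 to 260208410 UMIs per sample, against 6893 to 292745 in neutrophils and 8659 to 160312 in T cells, so that values of the rare types are the least precise, and a matrix held 71835789 to 300206053 UMIs in all with a median of 7452 to 14027 per barcode. Levels are given as CPM, the UMIs of a gene per 1000000 UMIs of that cell type in that sample, and since each gene is read by its own probes, a level was compared between cells and samples but not between genes.

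RefSeq promoters (build GRCm38.p6, which is mm10) were at hand for 32 of the 39 genes. The core ACGTG, on either strand within 250 bases before the start of transcription, was in the promoters of 19 of these 32 genes (59.4%), against 18.5% of 27025 genes in the table and 21.0% of the genes with a row in the matrices. A gene with several promoters was counted if any of them held the core. By promoter, the share was 47.8% of the 46 of these genes, against 16.6% of all 32851. CACGTG, the E-box, holds the core on both strands and gives a pair of overlapping matches. By role, the core was in 2 of 2 transporters, 2 of 2 collagen-modifying enzymes, 6 of 7 oxygen sensors and feedback genes, 6 of 14 glycolytic enzymes, 1 of 3 switches of glycolytic flux and 2 of 4 acid-base, mitophagy, stress and secreted targets. The sequences below are those of the genes on which the treatment comparison turned and that had an entry, with Slc16a3 and Ldha added for the transport and making of lactate. Where a gene had several promoters, the one with the most matches is shown. Each ends at the base before the start of transcription, reads 5′ to 3′ on the strand of its gene, and has its core matches in capitals. A match is a run of letters and not a shown binding site.
Slc2a1 (chr4:119108495-119108744, + strand): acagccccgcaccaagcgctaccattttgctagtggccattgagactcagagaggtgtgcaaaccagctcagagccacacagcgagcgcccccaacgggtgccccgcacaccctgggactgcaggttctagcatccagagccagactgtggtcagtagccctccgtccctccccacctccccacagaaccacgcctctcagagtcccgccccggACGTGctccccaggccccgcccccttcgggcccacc
Slc16a3 (chr11:120948817-120949066, + strand): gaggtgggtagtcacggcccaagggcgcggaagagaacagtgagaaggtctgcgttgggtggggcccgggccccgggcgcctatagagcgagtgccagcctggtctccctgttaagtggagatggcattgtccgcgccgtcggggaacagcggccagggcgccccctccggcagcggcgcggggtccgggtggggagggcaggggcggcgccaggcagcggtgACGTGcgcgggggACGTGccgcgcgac
Ldha (chr7:46845554-46845803, + strand): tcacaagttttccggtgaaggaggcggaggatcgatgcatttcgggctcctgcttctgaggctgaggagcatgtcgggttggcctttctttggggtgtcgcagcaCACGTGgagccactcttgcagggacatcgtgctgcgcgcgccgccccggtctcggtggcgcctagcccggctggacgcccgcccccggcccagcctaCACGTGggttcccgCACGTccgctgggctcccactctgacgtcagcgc
Pfkp (chr13:6648772-6649021, - strand): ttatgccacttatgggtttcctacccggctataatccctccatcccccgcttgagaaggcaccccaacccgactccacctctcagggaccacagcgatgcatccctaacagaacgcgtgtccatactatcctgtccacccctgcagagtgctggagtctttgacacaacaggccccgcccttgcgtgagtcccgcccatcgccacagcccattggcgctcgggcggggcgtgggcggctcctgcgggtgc
P4ha2 (chr11:54100674-54100923, + strand): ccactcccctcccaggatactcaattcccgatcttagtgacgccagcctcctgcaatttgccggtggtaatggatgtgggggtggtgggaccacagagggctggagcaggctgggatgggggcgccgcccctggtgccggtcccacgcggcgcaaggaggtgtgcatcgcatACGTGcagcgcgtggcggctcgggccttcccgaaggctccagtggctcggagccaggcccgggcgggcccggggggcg
Car9 (chr4:43506776-43507025, + strand): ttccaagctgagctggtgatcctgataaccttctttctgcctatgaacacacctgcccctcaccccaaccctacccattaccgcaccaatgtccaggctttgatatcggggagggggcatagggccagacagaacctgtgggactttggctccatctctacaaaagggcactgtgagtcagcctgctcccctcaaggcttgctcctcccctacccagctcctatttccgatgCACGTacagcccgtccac
Mxi1 (chr19:53329163-53329412, + strand): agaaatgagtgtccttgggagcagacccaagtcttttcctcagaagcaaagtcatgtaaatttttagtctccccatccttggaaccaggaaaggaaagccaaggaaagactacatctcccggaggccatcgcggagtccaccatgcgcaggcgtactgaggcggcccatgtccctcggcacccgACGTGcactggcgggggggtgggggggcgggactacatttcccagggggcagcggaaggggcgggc
Bhlhe41 (chr6:145865421-145865670, - strand): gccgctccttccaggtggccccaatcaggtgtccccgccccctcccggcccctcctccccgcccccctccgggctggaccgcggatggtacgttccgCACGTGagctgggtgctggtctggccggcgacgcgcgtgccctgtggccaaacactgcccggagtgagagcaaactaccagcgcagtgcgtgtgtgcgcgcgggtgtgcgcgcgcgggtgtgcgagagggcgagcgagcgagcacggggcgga
Ldha, the enzyme that turns pyruvate into lactate, had 5 matches in the promoter shown, those of its E-boxes starting 145 and 48 bases before the start of transcription. The single match of Car9 began 18 bases before the start and that of Slc2a1 36 bases before it. Pfkp had none.

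Across the cell types of these tumors, the highest levels of most of the 37 genes were not in tumor cells. The score of the gene set, the mean over genes of ln(1 + UMIs per 10000), was 0.593, 0.611 and 0.599 in tumor cells of vehicle samples and 0.728 and 0.618 in Xevinapant samples. Neutrophils reached 0.728 ± 0.200 (SD, n = 5 samples), macrophages 0.669 ± 0.073, fibroblasts 0.667 ± 0.139 and T cells only 0.353 ± 0.028. The first 3 of these types overlapped with the tumor cells and with each other over the samples, and T cells were below tumor cells in 5 of 5 samples. By the same score, the type with the highest level was neutrophils for 11 genes, macrophages for 7, tumor cells for 6 and fibroblasts for 5. In CPM it was neutrophils for 22, macrophages for 4, fibroblasts for 5 and tumor cells for 1, Aldoc, and 23 of the 37 genes had the same highest type on both scales. The score also depends on the depth of the cells, which were not thinned for it, and the part of depth was not tested. In vehicle 1+3, 34 neutrophils held 36066 UMIs and 13 T cells 32214, against 128531848 in 7432 tumor cells. No minimum of cells was set for these scores and levels. The neutrophil means thus include vehicle 2 and 4, with 8 and 7 cells holding 8744 and 6893 UMIs.

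**Figure D1:**
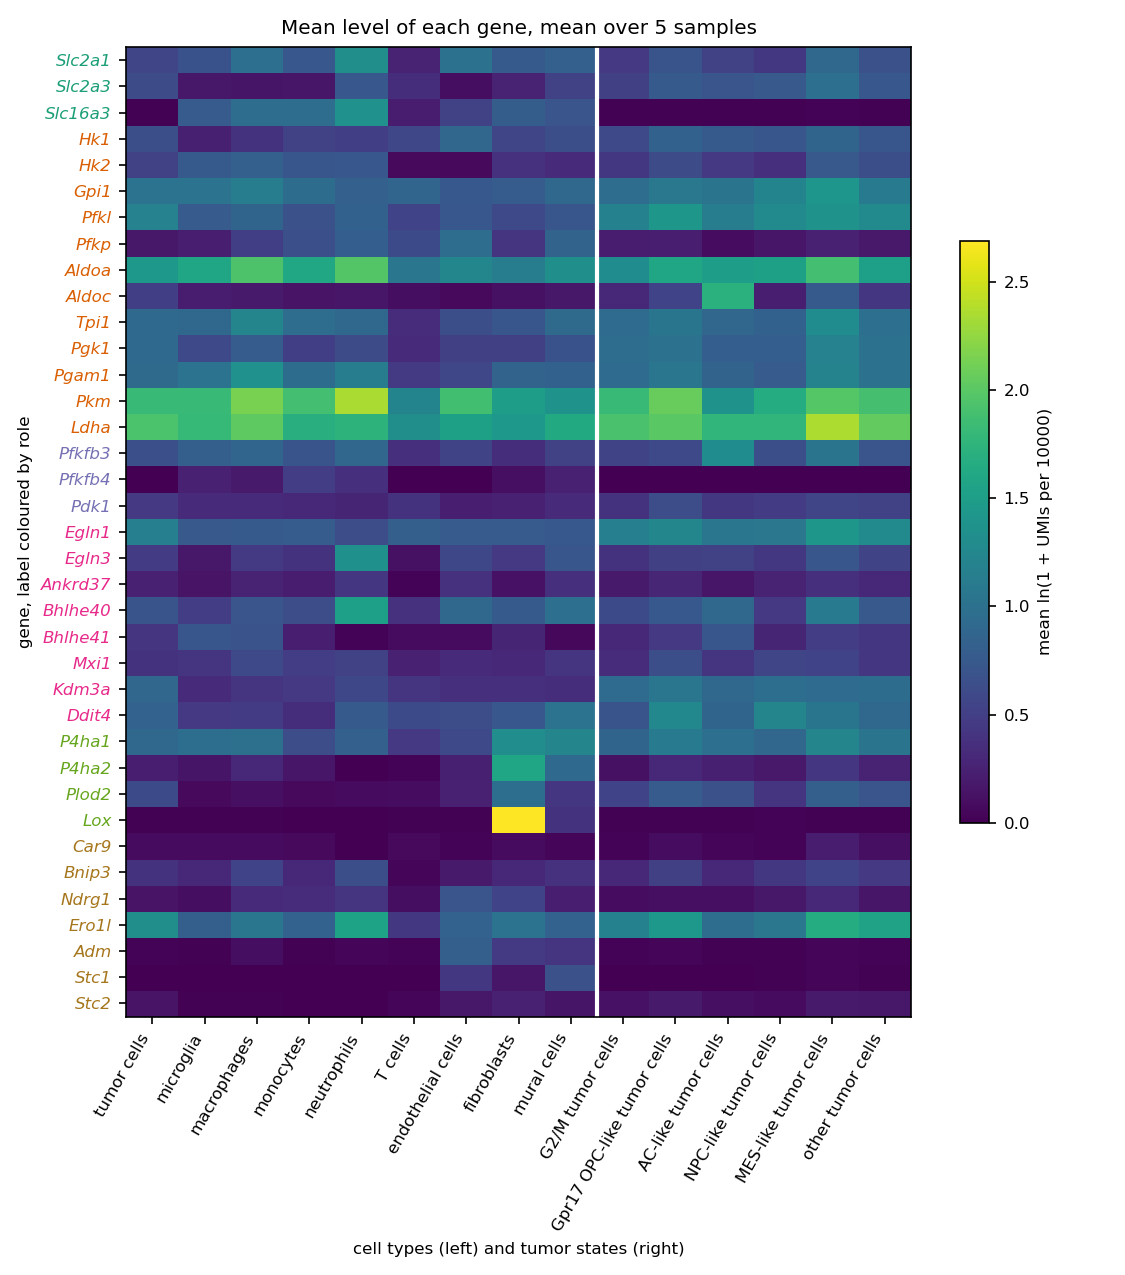
Mean level of each of the 37 genes, as ln(1 + UMIs per 10000) averaged over cells and then over 5 samples, in 9 cell types (left of the white line) and 6 tumor cell states (right of it). Gene labels are coloured by role, from transporters at the top to secreted targets at the bottom, and each row is read across its cell types: Lox is highest in fibroblasts, and Slc16a3 and Pfkfb4 are lower in tumor cells than in macrophages and neutrophils.

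Each host type was compared with the tumor cells of the same samples, with the sample as a block in edgeR's quasi-likelihood test after TMM scaling (which sets libraries level on the bulk of their genes), with Benjamini-Hochberg adjustment over all genes and a threshold of 0.05. Samples with under 10 cells of a type were left out of its fit, which removed vehicle 2 for monocytes and T cells, and vehicle 2 and 4 for neutrophils and mural cells. In macrophages 23 of the 37 genes were higher and 4 lower than in tumor cells, where 30.7% of all genes were higher and 38.1% lower. In neutrophils 26 were higher and 6 lower (17.0% and 27.2% of all genes). The median log2 fold change of the set was 1.11 in macrophages and 1.71 in neutrophils, and that of all genes -0.19 and -0.93. Microglia had 18 higher and 10 lower (29.1% and 34.4%), monocytes 19 and 5 (23.8% and 33.2%), fibroblasts 17 and 4 (27.9% and 30.4%), endothelial cells 13 and 11 (22.6% and 25.6%), mural cells 9 and 6 (10.2% and 10.4%) and T cells 2 and 15 (12.6% and 20.6%). These splits moved with the scaling: without TMM the median of all genes lay between -0.45 and -1.21, and the counts became 20 higher and 7 lower in macrophages, 24 and 6 in neutrophils, 13 and 13 in microglia, 15 and 12 in monocytes, 12 and 12 in fibroblasts, 12 and 15 in endothelial cells, 8 and 9 in mural cells and 2 and 12 in T cells. Of all genes 3177, 2050, 2995, 2728, 2813, 2672, 1334 and 2106 were then higher, in the same order, and 8053, 4667, 7529, 6215, 7543, 5067, 1767 and 2455 lower. The markers of tumor cells, summed, stood in the host types at 2.36% to 23.5% of their tumor cell level, and their part in these differences was not tested.

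Slc16a3, the MCT4 transporter that exports lactate, was low in tumor cells and higher in every host type. Its levels in tumor cells were 1.41, 1.61 and 1.89 CPM in vehicle and 4.62 and 1.79 in Xevinapant samples. Macrophages had 363, 339 and 308 in vehicle and 419 and 281 in Xevinapant samples. Neutrophils had 527, 1029 and 435, and 1127 and 659. No macrophage or neutrophil value came near a tumor cell value, and the log2 fold change against tumor cells was 7.86 ± 0.23 (SE) in macrophages and 8.57 ± 0.41 in neutrophils. Each SE of a log2 fold change was worked back from the test, as its size over the square root of the F value, and is approximate. Slc16a3 was higher than in tumor cells in all 8 host types, with log2 fold changes from 5.18 in T cells upward, with and without TMM. Pfkfb4, which makes the activator of phosphofructokinase, was at 0.153 to 0.446 CPM in tumor cells and at 19.3 to 54.5 in macrophages, a log2 fold change of 7.49 ± 0.32. Pfkp, the platelet-type phosphofructokinase, was at 18.6 to 38.9 in tumor cells and at 90.3 to 178 in macrophages, 2.81 ± 0.11 higher on the log2 scale.

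Egln3, a HIF hydroxylase that is itself a HIF target, stood out in neutrophils. It was at 1248, 1144 and 725 CPM in vehicle and 1636 and 1098 in Xevinapant samples, and at 79.9 to 169 in tumor cells, a log2 fold change of 3.68 ± 0.34 (adjusted p = 2.76e-25, edgeR quasi-likelihood test). Vehicle 2 and 4, with 8 and 7 neutrophils, were not in this fit. The test shares the spread across genes, so with so few samples this p rests little on the spread of Egln3 itself. Slc2a1 (GLUT1), which brings glucose into the cell, was 2.47 higher in neutrophils and 2.35 higher in macrophages on the log2 scale, and 1.19 lower in T cells. For genes with next to no UMIs only a bound can be given. Stc2, a secreted glycoprotein, had 0 UMIs in neutrophils, and its level in tumor cells, 23.4 CPM, was at least 3.69-fold above what 3 counts in all neutrophils would give.

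In fibroblasts the widest difference from tumor cells was that of Lox, a collagen-modifying enzyme. By size, Slc16a3, Pfkfb4, Adm and Stc1, genes of other roles, came next, ahead of P4ha2. Lox, which crosslinks collagen outside the cell, was at 1723, 3846 and 3248 CPM in vehicle and 3854 and 3494 in Xevinapant fibroblasts, and at 0.739 to 4.06 in tumor cells. The log2 fold change was 11.32 ± 0.50 (adjusted p = 3.88e-09, edgeR quasi-likelihood test). P4ha2, a subunit of the prolyl hydroxylase that stabilises collagen, was at 515 to 1200 in fibroblasts and at 25.7 to 114 in tumor cells, 4.58 ± 0.24 higher on the log2 scale. With TMM scaling all 4 genes of this role were higher in fibroblasts. In endothelial cells Adm and Stc1, both secreted, were among the higher genes. Adm, the vessel-widening peptide adrenomedullin, was at 214, 348 and 174 in vehicle and 472 and 435 in Xevinapant samples, against 2.04 to 6.77 in tumor cells (log2 fold change 6.58 ± 0.17), and Stc1, stanniocalcin 1, was 6.88 ± 0.36 higher. Aldoc, the aldolase of brain tissue, was the reverse case: with TMM scaling it was lower than in tumor cells in all 8 host types, by 0.92 in macrophages to 2.65 in endothelial cells on the log2 scale. Within the tumor cells it followed the astrocyte-like (AC-like) state, with 837, 815 and 724 CPM in vehicle and 758 and 637 in Xevinapant samples, against 92.3 to 193 over all tumor cells. Host astrocytes were not gated apart, and their part in these values was not tested.

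Inside the tumor cells, the genes moved together with HIF targets that are not among the 39. A set of 8 such targets (Vegfa, Hilpda, Angptl4, Ak4, Vldlr, Fam162a, Higd1a and Ppp1r3c) served as anchor genes. Tumor cells were thinned to 5000 UMIs each, which left out those with fewer (22.2%, 21.8% and 19.1% of tumor cells in vehicle and 28.1% and 21.5% in Xevinapant samples), and cells with at least 10 anchor UMIs (anchor-high, 5917 cells) were compared with cells that had none (anchor-free, 2811 cells) within each sample. Of 36 genes tested, 35 were higher and 0 lower in anchor-high cells by edgeR's quasi-likelihood test, where 26.7% of all genes were higher and 26.1% lower. The median log2 fold change was 2.56, and 0.00 over all genes.

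**Figure D2:**
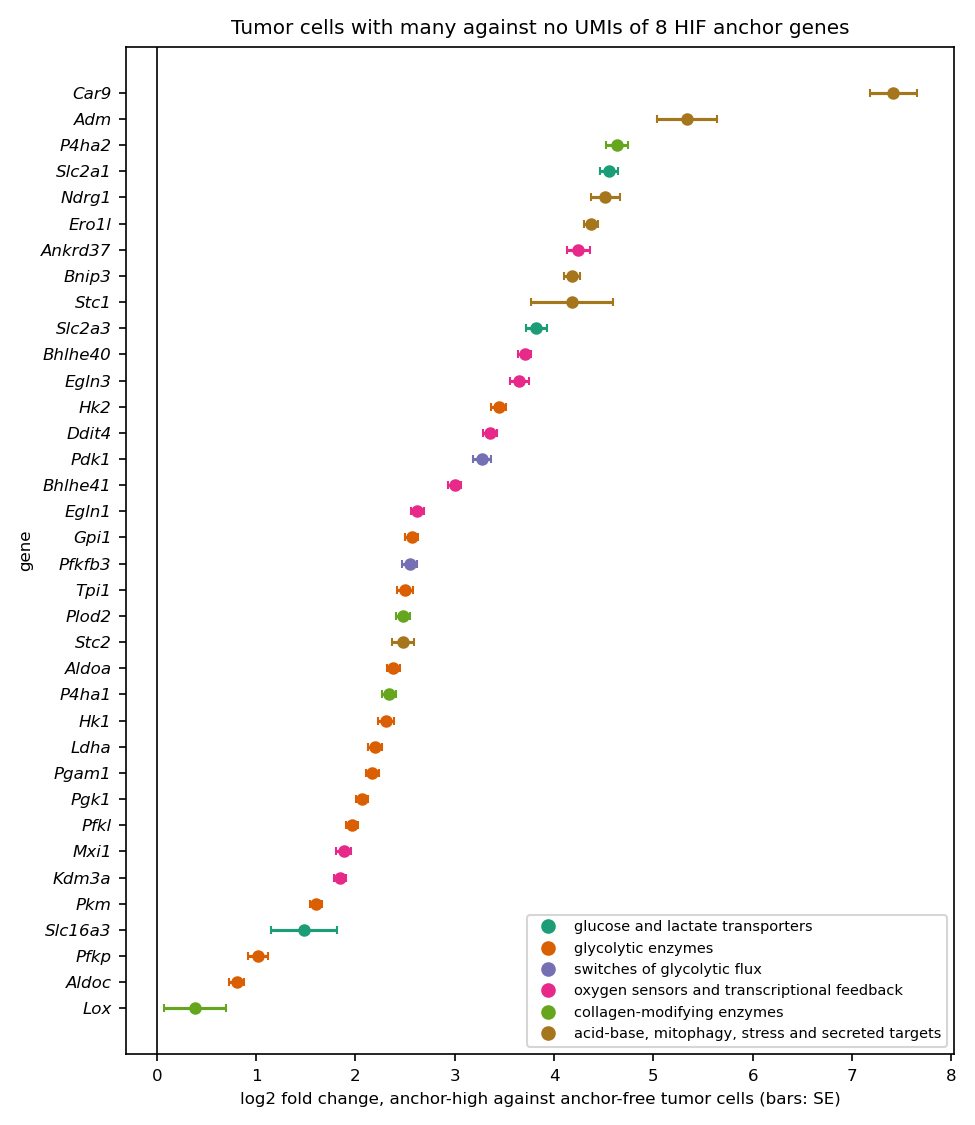
Log2 fold change (points, bars are SE) of 36 genes between anchor-high and anchor-free tumor cells of the same 5 samples, coloured by role. All points lie above 0, from Lox at 0.39, whose bar is wide, to Car9 at 7.41.

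Car9, the carbonic anhydrase that acidifies the surroundings of hypoxic cells, was found almost wholly in the anchor-high cells of this comparison. It stood there at 84.4, 40.9 and 30.3 CPM in vehicle and 141 and 94.7 in Xevinapant samples. In anchor-free cells it was at 0, 0 and 0.261 in vehicle and 2.42 and 0.230 in Xevinapant samples, from 6 UMIs in all, so that its fitted log2 fold change of 7.41 ± 0.24 depends on few counts. That SE is narrower than the counting noise of 6 UMIs alone would give. Slc2a1, the main glucose importer of the blood-brain barrier and of hypoxic cells, was at 761, 564, 538, 926 and 851 in anchor-high and at 31.6, 35.04, 25.03, 34.4 and 36.7 in anchor-free cells (vehicle 1+3, 2 and 4, then Xevinapant 1+2 and 3+4). That is a log2 fold change of 4.55 ± 0.09 (adjusted p = 1.18e-14, edgeR quasi-likelihood test), with no overlap in any sample. Ero1l, the oxidase that forms disulfide bonds in the endoplasmic reticulum, was at 2749 to 4111 in anchor-high and at 143 to 212 in anchor-free cells, 4.37 ± 0.07 on the log2 scale. P4ha2 (4.63 ± 0.11), Ndrg1 (4.51 ± 0.15), a stress-response gene of growth arrest, and Adm (5.34 ± 0.30) complete the 6 genes with the widest fitted difference. Adm had 6 UMIs in all anchor-free cells, against 508 in anchor-high cells, so that its fold, like that of Car9, rests on few counts and its SE is too narrow.

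By role, and with no test between roles, the median log2 fold change was 2.18 for 12 glycolytic enzymes, 2.91 for 2 switches of glycolytic flux, 2.41 for the collagen-modifying enzymes, 3.18 for oxygen sensors and feedback genes, 3.82 for the 3 transporters and 4.37 for the acid-base, mitophagy, stress and secreted targets. Ldha was at 1640 to 2077 CPM in anchor-high and at 332 to 504 in anchor-free cells, 2.19 ± 0.07 on the log2 scale. Bnip3, which directs mitochondria to breakdown, differed by 4.18 ± 0.08 and Pdk1, the kinase that keeps pyruvate out of the mitochondria, by 3.28 ± 0.09. At the low end were Pfkp with 1.02 ± 0.10, Aldoc with 0.81 ± 0.08 and Lox with 0.39 ± 0.31, which did not pass (adjusted p = 0.319, edgeR quasi-likelihood test). The 19 genes with ACGTG in the promoter had a median of 2.63, and 10 without it 2.39. Between the treatments in tumor cells, described below, the medians were 0.309 for the 19 and 0.364 for 11 without it.

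For 12 of the 37 genes, among them Ldha, Pkm, Car9, Bnip3 and Ero1l, the level was higher at each step of the anchor count in 5 of 5 samples. Over cells with 0, 1 to 2, 3 to 5, 6 to 9, 10 to 19 and 20 or more anchor UMIs, mean Slc2a1 went from 32.6 over 38.5, 61.7, 170 and 410 to 1252 CPM, and Ldha from 422 to 2056. Pfkp went only from 20.8 to 51.2. Correlation across cells with Vegfa, averaged over 5 samples of 4309 to 10169 cells and given as a description, was highest for Ero1l (r = 0.689), Slc2a1 (0.605), Bhlhe40 (0.588), Slc2a3 (0.580) and Ddit4 (0.577). It was lowest for Pfkfb4 (0.007), Lox (0.009), Slc16a3 (0.034) and Pfkp (0.078), the first 3 of which have few UMIs in tumor cells. Among pairs of the 37 genes Slc2a1 and Ero1l had the highest value (0.618). Cells of 1 sample share a library, and these values carry no test.

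Genes next to the pathway differed between the same cells. Of 8 HIF pathway regulators tested, 5 were higher in anchor-high cells and 1 lower. Cited2, a HIF-induced inhibitor of HIF, was higher by 1.31 ± 0.13 on the log2 scale, Vhl by 0.93 ± 0.07, Epas1 by 0.75 ± 0.15 and Hif1a by 0.66 ± 0.10, and Egln2 was lower by 0.21 ± 0.07 (a log2 change of -0.21, named after its value was seen). Of 19 other glycolysis genes 12 were higher and 4 lower. Those with the widest difference were the glycogen genes Gys1 (2.51 ± 0.07), Gbe1 (2.32 ± 0.14) and Pgm1 (2.21 ± 0.06), and Eno2 (2.02 ± 0.10). Genes of other stress responses were higher as well: 16 of 17 dissociation and immediate early genes, with a median of 2.18, and 11 of 13 targets of the stress factor Atf4, with a median of 1.2. Vldlr is among these Atf4 targets and is also an anchor gene, so its own difference was set by the gate. Atf3 is in both of these lists, so their counts are not separate. Their part in the difference was not tested.

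Between the treatments, no gene of the set passed the test in tumor cells. Of 37 genes, 0 had an adjusted p below 0.05 in edgeR's quasi-likelihood test with Benjamini-Hochberg adjustment, as had 0.0% of all 14662 genes tested. At an unadjusted p below 0.05 there were 12 of the 37 (32.4%) and 1664 of all genes (11.3%), and DESeq2 called 6 genes of the set, all higher, and 126 higher and 153 lower of 18997 genes. Every gene with any UMI is in that DESeq2 total, and a gene left without an adjusted p counted as not called. The fitted difference was above 0 for 32 of 37 genes, with a median log2 fold change of 0.35, and 0.01 over all genes. In 13 of 37 genes both Xevinapant samples lay above all 3 vehicle samples, as did 18.5% of all genes with at least 50 UMIs per sample on average, and in 1 gene, Pgk1, both lay below, as did 11.9%.

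The gene with the widest difference was Car9. It was at 13.6, 6.09 and 4.46 CPM in vehicle and 48.6 and 17.3 in Xevinapant tumor cells, a log2 fold change of 2.004 ± 0.56 (adjusted p = 0.420, edgeR quasi-likelihood test). The groups did not overlap, but the 2 Xevinapant samples differed from each other more than vehicle 1+3 from Xevinapant 3+4. P4ha2 was at 46.2, 25.7 and 28.2 in vehicle and 114 and 56.3 in Xevinapant samples (1.32 ± 0.35). Ndrg1 was at 28.8, 17.8 and 20.7, and 55.2 and 39.6 (1.04 ± 0.23). In both genes vehicle 1+3 was the highest of the vehicle samples, and Xevinapant 1+2 was the higher of the Xevinapant samples. Genes with a mean below 5 CPM were set aside here. Among them Stc1 (1.446), Pfkfb4 (1.102), Adm (1.055) and Slc16a3 (0.919) also had wide fitted differences on the log2 scale.

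**Figure D3:**
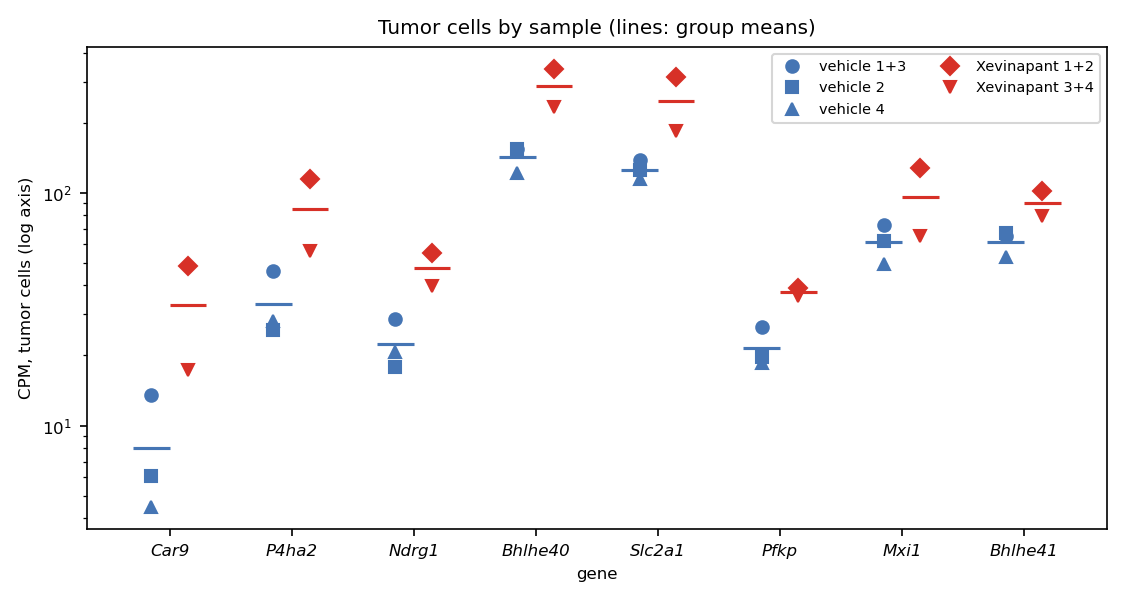
Levels of the 8 genes with the widest difference in tumor cells among those with a mean of at least 5 CPM, in CPM on a log axis, 1 point per sample, with lines for the group means (3 vehicle samples in blue, 2 Xevinapant samples in red). Xevinapant 1+2 is the highest sample for every gene, and Mxi1 is the only gene of the 8 in which the groups overlap.

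Bhlhe40, a transcription factor that represses other genes under hypoxia, was at 154, 154 and 121 CPM in vehicle and 341 and 234 in Xevinapant tumor cells, 0.96 ± 0.20 on the log2 scale. Slc2a1 was at 138, 125 and 115, and 314 and 185 (0.94 ± 0.22). In Pfkp the 2 Xevinapant samples were close to each other, with 26.6, 19.6 and 18.6 in vehicle and 38.9 and 36.1 in Xevinapant samples (0.75 ± 0.18). Mxi1, an antagonist of Myc, was at 72.8, 61.9 and 49.4, and 128 and 65.0 (0.61 ± 0.29), with overlap. Bhlhe41, the relative of Bhlhe40, was at 64.9, 67.0 and 52.8, and 102 and 79.5 (0.51 ± 0.16). The enzymes of the glycolytic chain itself gave smaller values: the median over 12 of them was 0.21, Ldha was at 768, 1008 and 742 in vehicle and 1041 and 866 in Xevinapant samples (0.13 ± 0.20), and Pgk1, phosphoglycerate kinase, was at 258, 232 and 298, and 201 and 208 (-0.41 ± 0.14). None of these values passed the test (all adjusted p at least 0.420 by edgeR's quasi-likelihood test). Of the genes next to the pathway, 0 of 9 regulators and 0 of 23 other glycolysis genes passed, with medians of -0.01 and -0.02, nor did any of the 8 anchor genes (median 0.18) or of the 13 Atf4 targets (-0.04).

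Much of the difference lay in 1 Xevinapant sample. Without Xevinapant 1+2 the median of the set was 0.01 and 19 of 37 genes were above 0, and without Xevinapant 3+4 it was 0.62 with 36 above 0. The log2 fold change of Slc2a1 was 0.48 without the first and 1.28 without the second, that of P4ha2 0.68 and 1.75, and that of Car9 1.04 and 2.57. Pfkp, at 0.67 and 0.82, and Pfkfb3, at 0.38 and 0.33, moved less. Other values moved with the groups too. In tumor cells, dissociation and immediate early genes summed to 1845, 1685 and 1611 CPM in vehicle and 2790 and 2538 in Xevinapant samples, and 0 of 17 passed, with a median log2 fold change of 1.04. The markers of macrophages summed to 82.9, 68.6 and 89.1, and 135 and 115, and those of neutrophils to 3.31, 2.98 and 2.67, and 10.9 and 6.87. The mitochondrial share was 1.02%, 1.17% and 1.09%, and 0.765% and 0.918%. Of the tumor cells with at least 5000 UMIs 31.8%, 33.0% and 35.7% were G2/M cells in vehicle and 22.3% and 26.4% in Xevinapant samples, and 12.5%, 8.35% and 5.27%, and 26.3% and 10.7% were Gpr17 oligodendrocyte precursor-like (OPC-like) cells. Their part in the differences was not tested.

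The share of anchor-high cells, taken over tumor cells with at least 5000 UMIs, was 16.1%, 14.8% and 14.0% in vehicle and 27.6% and 17.3% in Xevinapant samples, a difference of 7.44 percentage points (p = 0.2 by an exact permutation test, two-sided by doubling the smaller tail, which gives no smaller value for 3 against 2 samples). A further 7.14% to 10.6% of the cells lay near the threshold, and the separation depended on it. With at least 6 anchor UMIs in place of 10 the shares were 28.2%, 27.1% and 27.6% against 42.2% and 27.9%, so that Xevinapant 3+4 lay among the vehicle samples (exact permutation test, p = 0.4). With Vegfa alone as the anchor the shares were 17.1%, 16.5% and 13.3% against 34.4% and 20.5%, and with cells thinned to 3000 UMIs 9.22%, 7.91% and 7.06% against 16.1% and 10.1%, and the groups stood apart in both (exact permutation test, p = 0.2 each). By state the share was 12.4%, 12.5% and 12.7% against 20.9% and 18.4% in AC-like cells, 25.2%, 31.0% and 21.1% against 42.5% and 29.2% in mesenchymal-like (MES-like) cells, and 10.7%, 9.84% and 10.6% against 15.9% and 9.13% in G2/M cells. It was 19.8%, 22.9% and 24.1% against 29.5% and 22.7% in Gpr17 OPC-like cells, 19.2%, 11.7% and 13.6% against 20% and 8.09% in NPC-like cells, and 18.2%, 16.8% and 15.3% against 33.1% and 19.7% in other tumor cells. The groups stood apart in AC-like and in other tumor cells and overlapped in the remaining 4 states. Within cells of 1 anchor class the difference of the set was near 0: the median log2 fold change between the treatments was 0.03 in anchor-high cells (20 of 36 genes above 0) and 0.08 in anchor-free cells (16 of 31). The anchor genes move with the set, so holding them fixed takes out much of any difference the 2 share. These medians therefore cannot tell a changed share of cells from a changed level within cells. In anchor-high cells Car9 was at 1.17 ± 0.35, Pfkp at 0.82 ± 0.20, Adm at 0.77 ± 0.29 and P4ha2 at 0.74 ± 0.22, and none of the 36 passed (smallest adjusted p = 0.115, edgeR quasi-likelihood test). An unadjusted p below 0.05 was found there for 11 of the 36 and for 2011 of all 11944 genes. Of the 11, Pgk1 (-0.59 ± 0.18), Pdk1 (-0.49 ± 0.16) and Bnip3 (-0.41 ± 0.16) were on the lower side and 8 on the higher.

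By state, marked by genes outside the 39, the score of the set was highest in MES-like cells in all 5 samples, with 0.767, 0.880 and 0.741 in vehicle and 0.988 and 0.808 in Xevinapant samples. In these cells Ldha was at 939, 1492 and 904, and 1494 and 1280 CPM, against 742 to 1041 over all tumor cells. The G2/M cells had the lowest mean score, 0.579 ± 0.037 (SD, n = 5). Between the treatments, 0 genes passed edgeR's quasi-likelihood test in any state, where at most 0.00865% of all genes did. At an unadjusted p below 0.05 there were 5 of 37 in G2/M cells, 6 of 36 in Gpr17 OPC-like cells, 12 of 35 in AC-like cells, 1 of 31 in NPC-like cells, 9 of 35 in MES-like cells and 11 of 37 in other tumor cells, and DESeq2 called 0, 3, 7, 0, 2 and 5. Of all genes DESeq2 called 13, 165, 63, 9, 57 and 105 higher and 17, 187, 38, 2, 11 and 67 lower. Of all genes 6.9%, 15.4%, 10.0%, 6.87%, 8.14% and 10.2% had an unadjusted p below 0.05, in the same order, against 13.5%, 16.7%, 34.3%, 3.23%, 25.7% and 29.7% of the set. The medians were 0.10, 0.15, 0.29, 0.06, 0.36 and 0.42, and without Xevinapant 1+2 they were -0.15, -0.07, 0.13, -0.59, 0.06 and 0.00. With a stricter gate the median was 0.04 in AC-like, -0.10 in NPC-like and -0.10 in MES-like cells.

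In MES-like cells Car9 was at 38.1, 15.01 and 22.8 CPM in vehicle and 203 and 49.1 in Xevinapant samples (2.30 ± 0.57), P4ha2 at 134, 30.9 and 50.4, and 281 and 154 (1.61 ± 0.50), and Stc1 at 5.90, 1.77 and 1.83, and 19.3 and 5.11 (1.95 ± 0.74). With a stricter gate for the state, under which vehicle 2 had fewer than 10 cells and left the fit, Car9 turned to -0.50. Ndrg1 came closest to the threshold there, with 48.0, 40.6 and 52.2 in vehicle and 117 and 116 in Xevinapant samples (1.32 ± 0.16, adjusted p = 0.0760, edgeR quasi-likelihood test). In AC-like cells Ndrg1 was at 12.8, 8.57 and 17.0, and 38.7 and 51.4 (1.76 ± 0.26). There the higher Xevinapant sample was 3+4, and not 1+2 as in all tumor cells. Car9 in AC-like cells was at 5.47, 2.54 and 3.002, and 10.4 and 13.7 (1.73 ± 0.36), and Bhlhe40 at 188, 187 and 154, and 363 and 315 (0.94 ± 0.14). All 3 genes stood apart between the groups.

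In the other states the overlap between the groups varied by gene, and not every gene was higher with Xevinapant. In Gpr17 OPC-like cells, which resemble committed oligodendrocyte precursors, Car9 was at 18.2, 7.47 and 11.7 CPM in vehicle and 44.3 and 24.5 in Xevinapant samples (1.45 ± 0.37), Stc1 at 0.565, 0.534 and 1.41, and 3.28 and 0.696, and Lox at 1.201, 0.667 and 3.90, and 5.42 and 1.76. In G2/M cells Car9 was at 5.45, 2.25 and 2.28, and 12.8 and 3.82, P4ha2 at 21.9, 12.1 and 18.7, and 46.5 and 21.3, and Pfkfb4 at 0.461 or below throughout. In these states Xevinapant 3+4 lay among the vehicle samples for Stc1, Lox, Car9 in G2/M cells and P4ha2. Among other tumor cells Car9 was at 18.5, 9.37 and 4.87, and 71.3 and 23.2 (2.08 ± 0.60), P4ha2 at 58.6, 33.4 and 27.2, and 159 and 65.3 (1.46 ± 0.42), and Stc1 at 1.61, 0.418 and 1.08, and 4.02 and 2.15. In NPC-like cells Slc2a1 was at 54.9, 103 and 68.4, and 1394 and 56.6, the high value resting on 20 cells of Xevinapant 1+2, and without that sample the log2 fold change turned from 3.31 to -0.40. Slc2a3 was at 167, 196 and 133, and 503 and 95.7, and turned likewise from 0.84 to -0.79, while Bnip3 was at 125, 107 and 65.9, and 89.6 and 41.7 (-0.73 ± 0.38).

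Among host cells, endothelial cells had 2 of 30 genes higher and 0 lower with Xevinapant by edgeR's quasi-likelihood test, where 0.263% of all genes were higher and 0.0657% lower. Ndrg1 was at 77.0, 167 and 49.8 CPM in vehicle and 369 and 337 in Xevinapant endothelial cells, and rose by 1.78 ± 0.33 on the log2 scale (adjusted p = 0.0197). Stc1 was at 82.5, 74.9 and 87.2, and 142 and 368, and rose by 1.69 ± 0.35 (adjusted p = 0.0469). Neither gene overlapped between the groups, from 22 to 82 cells per sample. Both calls were lost without vehicle 1+3 (adjusted p = 0.203 for Ndrg1 and 0.254 for Stc1) or without vehicle 4 (0.149 and 0.202), with log2 fold changes of 1.63 and 1.72, and of 1.48 and 1.72, and Stc1 alone without vehicle 2 (0.369, log2 fold change 1.63) or Xevinapant 3+4 (0.427, log2 fold change 0.83). Stc1 was not called by DESeq2 (0.0978) or with the 8 matrices as samples (0.0900), at log2 fold changes of 1.66 and 1.74. With at least 3000 UMIs per cell neither gene was called (0.208 for Stc1 and 0.103 for Ndrg1), at 1.55 and 1.65. In the same cells the median log2 fold change of 15 dissociation and immediate early genes was 0.75, and 1 of them, Ier3, rose (1.65 ± 0.28, adjusted p = 0.0158, edgeR quasi-likelihood test). Of 5 anchor genes tested there 1 passed, Hilpda, a lipid droplet protein (1.72 ± 0.29, adjusted p = 0.0150, edgeR quasi-likelihood test), and the median was 0.04. The part of the immediate early genes in the result was not tested.

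**Figure D4:**
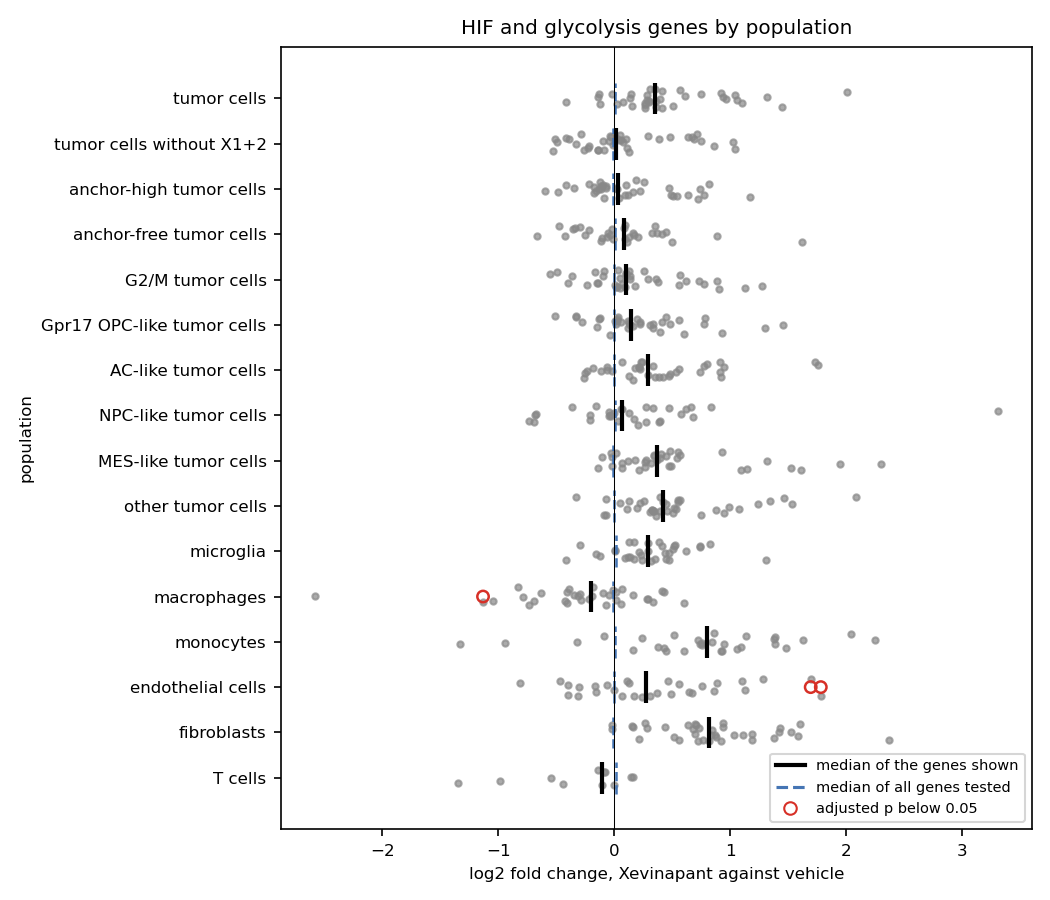
Log2 fold change between Xevinapant and vehicle for each gene of the set (grey points) in 16 populations, with the median of the set (black bar), that of all genes tested (blue dashes) and calls at an adjusted p below 0.05 (red circles). The medians lie right of 0 in fibroblasts (0.82), monocytes (0.80) and tumor cells (0.35), left of 0 in macrophages (-0.20), and near 0 in tumor cells without Xevinapant 1+2 and in cells of 1 anchor class.

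In fibroblasts 35 of 37 genes were above 0 with a median of 0.82, and 0 passed (0.0% of all genes), while 21 of 37 (56.8%) had an unadjusted p below 0.05 against 5.56% of all genes, and DESeq2 called 1, with 6 higher and 6 lower of 15041 genes with any UMI. The number with an unadjusted p below 0.05 was 7 without Xevinapant 1+2, where the median was 0.54, and 11 without vehicle 1+3. Car9 was at 4.75, 0 and 19.7 CPM in vehicle and 67.5 and 46.0 in Xevinapant fibroblasts, Ndrg1 at 66.5, 83.4 and 152, and 402 and 235 (1.60 ± 0.34), and Egln3 at 66.5, 15.9 and 124, and 268 and 191 (1.58 ± 0.43). In these 3 genes the groups did not overlap, with 17 to 293 cells per sample. Vehicle 4 was the vehicle sample nearest to the Xevinapant samples in all 3. Monocytes had 26 of 30 genes above 0 with a median of 0.80 and 0 passed (0.0% of all genes), with 13 (43.3%) at an unadjusted p below 0.05 against 7.33% of all genes, and 0 by DESeq2. The median was 1.41 without vehicle 1+3, 0.46 without vehicle 4, 0.60 without Xevinapant 1+2 and 1.045 without Xevinapant 3+4. Egln3 in monocytes was at 112, 226 and 12.8, and 373 and 146, Ndrg1 at 18.7, 90.5 and 70.6, and 282 and 109, and Ero1l at 336, 634 and 116, and 1017 and 319. The fit used vehicle 1+3 and 4 only, since vehicle 2 had 5 monocytes, and Xevinapant 3+4 lay below vehicle 2 for Egln3 and below both vehicle 2 and vehicle 1+3 for Ero1l.

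In microglia 29 of 33 genes were above 0 with a median of 0.29, and 0 passed (0.0% of all genes), with 7 (21.2%) at an unadjusted p below 0.05 against 4.49% of all genes, and 0 by DESeq2. Ndrg1 was at 17.1, 21.4 and 26.5 CPM in vehicle and 72.7 and 39.5 in Xevinapant microglia, Ddit4, an inhibitor of mTOR, at 114, 124 and 91.1, and 184 and 194, and Bhlhe40 at 133, 154 and 137, and 235 and 228. The groups stood apart in each, and the median of the set was -0.01 without Xevinapant 1+2. T cells, with 11 genes tested, had 0 past the test (0.0% of all genes), with 1 (9.09%) at an unadjusted p below 0.05 against 2.63% of all genes, and 0 by DESeq2. Pfkl in T cells was at 310, 231 and 276, and 106 and 112, Tpi1 at 248, 0 and 304, and 88.5 and 162, and Bhlhe40 at 124, 0 and 414, and 53.1 and 262, where vehicle 2, with 4 T cells, was not in the fit. Among the 4 samples of the fit the groups stood apart for Pfkl and Tpi1 and overlapped for Bhlhe40.

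In macrophages 11 of 34 genes were above 0, the median was -0.20, and Ddit4 was the 1 gene that passed (0.156% of all genes were lower and 0.239% higher). It was at 194, 267 and 213 CPM in vehicle and 101 and 102 in Xevinapant macrophages, and fell by 1.13 ± 0.18 on the log2 scale (adjusted p = 0.0403, edgeR quasi-likelihood test). The groups lay apart by more than either spread. Without vehicle 2 the median of the set was -0.07 with 15 of 34 genes above 0, and with a stricter gate it was -0.04 with 17 above 0. The call of Ddit4 was lost without vehicle 1+3 (adjusted p = 0.0501), vehicle 4 (0.119), Xevinapant 1+2 (0.327) or Xevinapant 3+4 (0.133), with log2 fold changes of -1.22, -1.15, -1.15 and -1.10. The markers of tumor cells stood in macrophages at 8.36%, 10.9% and 8.85% of their tumor cell level in vehicle and at 3.8% and 7.33% in Xevinapant samples, and their part in these differences and in the interaction given next was not tested. Slc2a3, the high-affinity glucose importer GLUT3, had the widest fitted difference in macrophages, -2.58 ± 0.95, which did not pass and rests on vehicle 2 with 453 against 20.4 to 32.3 in the other vehicle samples and 24.0 and 31.0 in Xevinapant samples.

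The difference between macrophages and tumor cells in their treatment effect was tested as an interaction with the sample as a block, again in edgeR's quasi-likelihood test. For 4 of 37 genes the effect was lower in macrophages and for 0 higher, where 0.9% of all genes were lower and 0.165% higher, and the median of the set was -0.58. Bhlhe40 was at 353, 429 and 535 CPM in vehicle and 185 and 309 in Xevinapant macrophages, while in tumor cells it was higher in both Xevinapant samples than in any vehicle sample, and the difference of effects was -1.80 ± 0.29 (adjusted p = 0.000357). Bhlhe41 was at 269, 410 and 288, and 146 and 242 in macrophages (-1.27 ± 0.25, adjusted p = 0.00541). For P4ha2 the macrophage values were 86.2, 89.1 and 73.3, and 75.5 and 58.7 (-1.59 ± 0.27, adjusted p = 0.000837), and for Ddit4 the difference was -1.42 ± 0.24 (adjusted p = 0.000959).

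**Figure D5:**
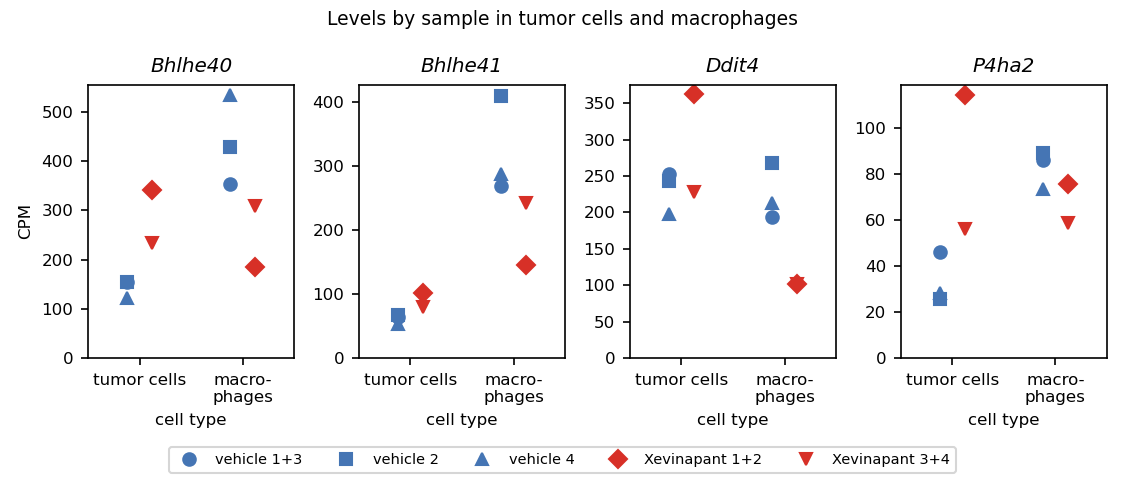
Levels of the 4 genes whose treatment effect differed between tumor cells and macrophages, in CPM, 1 point per sample (vehicle in blue, Xevinapant in red). In Bhlhe40, Bhlhe41 and P4ha2 the red points are above the blue in tumor cells, and in Bhlhe40, Bhlhe41 and Ddit4 below them in macrophages.

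None of the 4 passed without Xevinapant 1+2 (adjusted p 0.322 to 0.897), and all 4 stayed negative there, at -0.71 to -1.22. The same 4 passed with each of the other samples left out, with adjusted p of at most 0.0261. In the same interaction 6 of 17 dissociation and immediate early genes were lower in macrophages, with a median of -1.24, and their part in the result was not tested. For microglia against tumor cells 0 of 37 genes passed (0.0% of all genes) with 4 (10.8%) at an unadjusted p below 0.05 against 4.35% of all genes, the fitted differences of Car9 and Pfkfb4 being -1.51 ± 0.55 and -1.46 ± 0.58, and no value is given for Stc1, which is listed at 0 in all vehicle microglia.

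The macrophages were not uniform in these genes. Those with at least 2 UMIs of Arg1, the arginase of wound-type macrophages, were 29.1%, 19.2% and 21.2% of macrophages in vehicle and 54.1% and 30% in Xevinapant samples (p = 0.2 by the same exact permutation test). They numbered 44, 14 and 18 cells in vehicle and 291 and 67 in Xevinapant samples. Compared within samples with macrophages without Arg1, 20 of 33 genes were higher and 0 lower by edgeR's quasi-likelihood test (5.69% and 5.64% of all genes), with a median log2 fold change of 0.93 against -0.01 over all genes. These cells were not thinned, and those with Arg1 were deeper in every sample, with means of 9710, 14632 and 14228 UMIs in vehicle and 11433 and 11463 in Xevinapant samples against 6196, 7507 and 4967, and 6746 and 6536 in those without. The part of depth in the result was not tested. Leaving out 1 sample at a time gave 15 to 24 genes, a range given without the share of all genes in those fits, so it cannot be read against the background. Slc2a1 was at 812, 1528 and 945 CPM in vehicle and 661 and 983 in Xevinapant Arg1 macrophages, and at 273, 468 and 170, and 248 and 264 in the others (1.89 ± 0.18). Egln3 was at 171 to 287 in Arg1 macrophages and at 33.7 to 123 in the others, higher in 5 of 5 samples (2.23 ± 0.28, adjusted p = 0.000206). Adm was 2.16 ± 0.36 higher, Ndrg1 1.58 ± 0.22, Ero1l 1.56 ± 0.23 and Hk1, the housekeeping hexokinase, 1.48 ± 0.21. In Arg1 macrophages vehicle 2, with 14 cells, was the highest sample for Slc2a1, Ero1l (3183 CPM) and Hk1 (337 CPM). Of 12 glycolytic enzymes 11 were higher, Hk2 (0.51 ± 0.18) being the one that did not pass, and of the 8 oxygen sensors and feedback genes 3 were, namely Egln1, Egln3 and Ankrd37. Among 8 regulators of the pathway Epas1 (1.41 ± 0.39), Cited2 (1.14 ± 0.27) and Hif1a (1.004 ± 0.16) were higher. Of the immediate early genes 6 of 16 were higher as well.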

How the data were processed

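Dissociated tumors were profiled with a probe-based single-cell assay on fixed cells. The authors deposited raw UMI counts per gene and cell in 8 filtered matrices, 4 per group, aligned to mm10. The labels name Cell Ranger 3.0 and Seurat 4.0, and the matrix headers Cell Ranger 7.1.0.

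From these counts, barcodes were filtered, cell types and states were set by fixed marker thresholds on counts (mixed-lineage droplets were left out and no doublet caller was run), and counts were summed per sample and cell set. Sums with at least 10 cells entered edgeR 4.0.16 quasi-likelihood tests (limma 3.58.1, R 4.3.3), with Benjamini-Hochberg adjustment over all genes. DESeq2 1.42.0, other scalings and gates, 8 matrices as samples and each sample left out were alternatives. Neutrophils and mural cells were not tested for treatment. Python 3.11.15, numpy 2.4.6, scipy 1.17.1 and pandas 2.3.3 did the rest. Exact permutation tests were two-sided by doubling the smaller tail, which cannot go below p = 0.2 for 3 against 2 samples.

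Values per sample were given for genes past the test, up to 6 per comparison by size of the log2 fold change. Where none passed, the 3 with the widest difference were named, and in tumor cells the 8 with a mean of at least 5 CPM. Of other lists up to 4 called genes were named, and genes outside this rule (Slc16a3, Pgk1, Ldha, Pfkfb3, Bnip3, Pdk1 and others given for their role) were chosen after their values were seen. The genes and lists were chosen with earlier results of these data known. Of Aldoa's rows, that with 389461 UMIs was used and that with 1351 was not. In simulated tumor cell counts over 14647 genes the test recovered 31.3% of genes changed 1.5-fold, 97.0% of those changed 2-fold and 100% of those changed 4-fold. It made 3 false calls. The simulation gave all genes the same spread between samples and changed only well-counted genes. In the real tumor cells no gene passed, not even Car9 at a fitted 4.01-fold, so these shares do not measure the power of the real test.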

Additional observations from a re-analysis of the deposited data

Results flagged for a closer look

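For 4 of the 37 genes the treatment effect differed between macrophages and tumor cells by the interaction test itself (edgeR's quasi-likelihood test with the sample as a block). The effect in macrophages minus that in tumor cells, on the log2 scale, was -1.80 for Bhlhe40, -1.59 for P4ha2, -1.42 for Ddit4 and -1.27 for Bhlhe41. All 4 were past the threshold with any 1 of 4 samples left out, and none was without Xevinapant 1+2, where the values were -1.15, -1.22, -1.06 and -0.71.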

How the results depend on the processing

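The alternatives with leaked barcodes kept, the tumor cells of 1 anchor class and another thinning depth were chosen after seeing the data, as was the unfiltered fit of the anchor and Arg1 comparisons. In parentheses are the genes higher and lower among all genes of the same fit. With DESeq2 the number of genes of the set past the test was 6 in tumor cells (126 and 153), 3 in Gpr17 OPC-like (165 and 187), 7 in AC-like (63 and 38), 2 in MES-like (57 and 11) and 5 in other tumor cells (105 and 67), 1 in endothelial cells (9 and 5), 1 in fibroblasts (6 and 6) and 1 in macrophages (68 and 54), all higher but for 1 in Gpr17 OPC-like cells and the 1 in macrophages. Without a filter on low counts it was 8 in AC-like (173 and 106), 2 in NPC-like (132 and 81) and 7 in MES-like cells (324 and 88), 5 in endothelial cells (96 and 32), 14 in fibroblasts (117 and 72), 2 in microglia (44 and 22), 7 in macrophages (279 and 229) and 6 in monocytes (43 and 40), with those in macrophages lower and the others higher. The smallest adjusted p of the set in these unfiltered edgeR quasi-likelihood tests was 1.66e-42 in NPC-like cells and 1.18e-25 in macrophages. With the filter it was 0.602 and 0.0403. The cause of this gap was not tested, and the unfiltered counts carry that doubt. With the 8 matrices as samples, which counts alike pairs as separate, 6 were higher and 1 lower in tumor cells (7 in all, 264 and 414), 4 and 1 in Gpr17 OPC-like cells (5 in all, 550 and 613), 4 higher in AC-like (96 and 67), 4 lower in NPC-like (52 and 64), 2 higher in other tumor cells (126 and 137), 1 higher in endothelial cells (8 and 2) and 4 lower in macrophages (206 and 214). The share of anchor-high cells then differed by 7.16 points (exact permutation test, p = 0.0286), and with the lower threshold of 6 anchor UMIs by 7.21 points (exact permutation test, p = 0.171). With at least 3000 UMIs per cell the number of genes past the test was 0 in endothelial cells (8 and 1). Leaving out 1 sample at a time gave 0 to 2 genes in NPC-like cells (2 without Xevinapant 3+4, 35 and 4), 0 to 1 in MES-like cells (1 without Xevinapant 3+4, 17 and 0), 0 to 5 in endothelial cells (5 without Xevinapant 1+2, 61 and 18), 0 to 1 in macrophages (1 without vehicle 2, 16 and 22), 0 to 4 in monocytes (2 without vehicle 1+3, 30 and 9, and 4 without Xevinapant 3+4, 24 and 20), 0 to 1 in T cells (1 without vehicle 1+3, 2 and 6) and 0 to 8 in the interaction of macrophages with tumor cells (7 without vehicle 1+3, 31 and 172, and 8 without Xevinapant 3+4, 17 and 161). A group left with 1 sample (Xevinapant in every fit without 1+2 or 3+4, and vehicle in monocytes and T cells, where vehicle 2 had under 10 cells) was taken to vary like the other group.

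Directions turned in Gpr17 OPC-like cells without Xevinapant 1+2 (Stc1 -0.29, Lox -0.17), in NPC-like cells without Xevinapant 1+2 (Slc2a1 -0.395, Slc2a3 -0.786), with 8 matrices (-0.337, -0.881) and with a stricter gate (-0.244, -0.625), for Car9 in MES-like cells with a stricter gate (-0.504), and for Bhlhe40 in T cells without vehicle 4 (0.689) or Xevinapant 1+2 (0.052). The cause was not tested. Of the other values of named genes 873 kept their direction and side of the threshold, 41 came to pass it and 23 no longer did. The limit of 3000 UMIs was not run for states, whose cells all had at least 5000. No paired analysis was possible because each group is 1 deposited sample whose number pairs nothing.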

Other observations

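In macrophages Slc2a3 was at 453 CPM in vehicle 2 and at 20.4 to 32.3 in the other 4 samples, and Ero1l in Arg1 macrophages at 3183 in vehicle 2 and at 461 to 581 in the others. Vehicle 2 held 73 macrophages, of which 14 were Arg1 macrophages.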
